A study of Mus musculus with 6 samples.

Results

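The Fc receptor genes described here are Fcgr1, Fcgr3, Fcgr4, Fcer1g, Fcgr2b, Fcgrt and Fcmr, 7 of the 44678 Ensembl genes counted in 6 RNA-seq libraries of mouse spleen. They were chosen by name, as the genes for receptors that bind the constant part of antibodies, and each symbol matched 1 gene identifier. There were 3 libraries from wild type (WT) mice and 3 from mice without miR-144 and miR-451a (KO). The sample records call the cells untreated CD8a+ leukocytes. Per the study's methods the mice were adults of the C57BL/6J background, and in KO mice the genes of these microRNAs are deleted. Cytotoxic T cells carry CD8a as part of their co-receptor, and some dendritic cells of the spleen carry it too. Nothing in the records says that the libraries of a genotype came from separate mice, so p-values measure the spread between these libraries, which may be technical.

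Fc receptors couple antibodies to cells. The receptors for IgG encoded by Fcgr1 (CD64, of high affinity), Fcgr3 and Fcgr4 are activating: they pair with the common gamma chain, encoded by Fcer1g, whose tyrosine motif recruits Src family kinases and Syk. Fcgr2b encodes the inhibitory IgG receptor, whose own tyrosine motif recruits the lipid phosphatase SHIP1 (Inpp5d). It is the IgG receptor of B cells and is carried by many myeloid cells as well. Fcgrt encodes the heavy chain of the neonatal Fc receptor, which pairs with beta-2-microglobulin (B2m) inside cells and protects IgG from breakdown. Fcmr encodes the receptor for IgM, carried mainly by B cells in mice. Resting T cells are known for little of the activating receptors, while macrophages, monocytes and neutrophils carry them.

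The genes lie at 4 places in the genome (GENCODE M21 on GRCm38, the build that the sample records name). Fcgr2b (170958617 to 170976547, minus strand), Fcgr4 (171018920 to 171029761, plus strand), Fcgr3 (171051174 to 171064935, minus strand) and Fcer1g (171229572 to 171234365, minus strand) are neighbors on chromosome 1. Fcmr lies on the same chromosome from 130865669 to 130880791 on the plus strand, Fcgr1 on chromosome 3 from 96282909 to 96293969 on the minus strand, and Fcgrt on chromosome 7 from 45092990 to 45103851 on the minus strand. None lies on chromosome 11, which holds the deleted microRNAs. Their mature strands (RefSeq, GRCm38.p6, chromosome 11, plus strand) are shown because the KO mice lack them, with the seed, bases 2 to 8, in capitals.
miR-144-5p: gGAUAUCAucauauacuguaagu
miR-144-3p: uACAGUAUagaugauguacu
miR-451a: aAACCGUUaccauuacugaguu
The letters that pair with the miR-144-5p seed are TGATATC, and 7.21% of 11586 tested genes with an annotated 3′-UTR held them there. For miR-144-3p they are ATACTGT, held by 15.3% of these genes. For miR-451a they are AACGGTT, held by 2.57%. None of the 3 was found in the annotated 3′-UTRs of the 7 Fc receptor genes, whose longest forms measure from 140 bases (Fcmr) to 2397 bases (Fcgr2b).

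The promoters of 4 of the genes held GAGGAA, the core that the myeloid and B cell factor PU.1 is known to bind, within the window of 250 bases before to 50 bases after a RefSeq start. Both strands were searched, and all 4 matches read TTCCTC on the strand of the gene, here in capitals with the bases around them. These stretches are shown because they place the same letters near the start of the genes.
Fcgr1, chr3:96294007-96294036, minus strand: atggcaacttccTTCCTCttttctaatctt
Fcgr3, chr1:171059392-171059421, minus strand: gagtccatttccTTCCTCtttttgtagttc
Fcgr4, chr1:171018892-171018921, plus strand: aaggctatttacTTCCTCtcttctagtcaa
Fcmr, chr1:130865729-130865758, plus strand: acagattatcatTTCCTCattttaagtcct
The promoters of Fcer1g, Fcgr2b and Fcgrt held no match in this window. The motif occurs in 28.3% of all 32851 promoter windows and in 31.3% of the 27025 genes they belong to. A match is a string of letters, and binding was not measured.

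Library totals ran from 8143971 to 8876570 counts, and 3 counts corresponded to between 0.338 and 0.368 CPM (counts scaled to a common library total), a floor for counting error only. All 7 genes were above this floor in each library. Mir144 and Mir451a had 0 counts in each library, in WT as in KO, and these counts thus do not check the genotype. Summed over the 5 T cell markers, levels ran from 1596 CPM (KO2) to 3160 CPM (WT2), and over the 7 B cell markers from 1290 CPM (KO3) to 2982 CPM (KO2), so transcripts of B cells stood beside those of T cells in each library. The genotypes were compared over 13024 genes with edgeR's quasi-likelihood test, in which 4 (0.0307%) had an adjusted p-value under 0.05.

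None of the 7 Fc receptor genes had an adjusted p-value under 0.05 in KO against WT, where 0.0307% of all tested genes did. None had an unadjusted p-value under 0.05 either, against 6.25% of all tested genes (4.14% higher and 2.11% lower in KO). DESeq2 and limma voom also called 0 of the 7 after adjustment, with 1 (Fcgr1) and 0 at an unadjusted p-value under 0.05, where 744 of 20898 and 759 of 13024 genes were. Fcgr1 was also under it in edgeR without a filter on low counts (1132 of 20913 genes) and with the replicate number as a block (685 of 13024 genes). The fitted log2 fold changes were positive for 7 of 7 genes, against 50.6% of all genes. Their median was 0.31, against 0.0030 for all genes. Without WT replicate 1 the 7 values ran from 0.12 to 1.28, and without KO replicate 2 from -0.047 to 0.56. The 7 values come from the same libraries and are not independent of each other. Among marker genes, values were positive for 7 of 7 of B cells (median 0.29) and 8 of 8 of neutrophils (0.67). They were positive for 4 of 6 of monocytes (0.19) and 0 of 5 of T cells (-0.31).

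**Figure D1:**
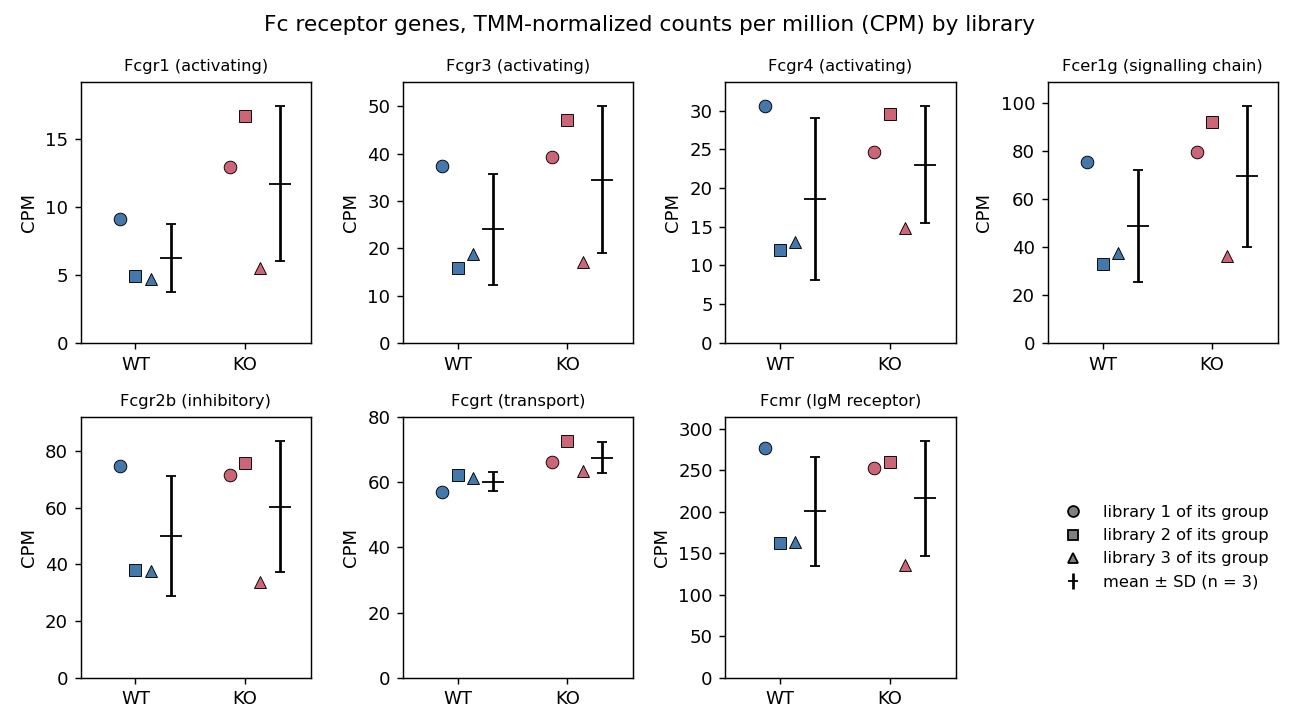
TMM-normalized CPM of the 7 Fc receptor genes in 3 WT and 3 KO libraries, each panel starting at 0, with points for libraries and bars for the mean ± SD (n = 3). In all panels but that of Fcgrt, WT1, KO1 and KO2 sit above WT2, WT3 and KO3, and the WT and KO points overlap.

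Among the activating receptors, Fcgr1 had the largest fitted difference. It reached 9.13, 4.91 and 4.72 CPM in WT libraries 1 to 3 and 13.0, 16.7 and 5.50 CPM in KO libraries 1 to 3, from raw counts between 38 and 139. KO1 and KO2 lay above all WT libraries, while KO3 lay among them. The means were 6.25 ± 2.49 CPM in WT and 11.7 ± 5.71 CPM in KO (SD, n = 3), and the fitted log2 fold change was 0.90 (standard error 0.43; edgeR's quasi-likelihood test, adjusted p = 0.808). Without WT replicate 1 it was 1.28, and without KO replicate 2 it was 0.56.

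Fcgr3 reached 37.4, 15.9 and 18.7 CPM in WT and 39.4, 47.0 and 17.1 CPM in KO libraries 1 to 3. One library of each genotype parted from its group: WT1 stood with KO1 and KO2, and KO3 stood with WT2 and WT3. KO minus WT was 0.52 on the fitted log2 scale (standard error 0.42; edgeR, adjusted p = 0.859), and it ranged from 0.23 without KO replicate 2 to 0.99 without WT replicate 1. Fcgr3 shares 13.4% of its 31-base words with Fcgr2b, and these words are 4.15% of those of Fcgr2b, so reads there are uncertain in both genes.

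Fcgr4, a receptor for IgG2 subclasses on myeloid cells, reached 30.6, 11.98 and 13.0 CPM in WT and 24.7, 29.6 and 14.8 CPM in KO libraries 1 to 3. The highest library was WT1, and no KO library lay outside the WT range. The fitted log2 difference was 0.31 (standard error 0.39; edgeR, adjusted p = 0.895), and it ranged from 0.071 without WT replicate 2 to 0.88 without WT replicate 1.

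Fcer1g, the signaling chain shared by the activating receptors, reached 75.4, 32.7 and 37.7 CPM in WT and 79.9, 92.3 and 36.3 CPM in KO libraries 1 to 3. KO1 and KO2 again lay above all WT libraries, WT1 lay just below them, and KO3 lay within the WT range. KO minus WT was 0.51 on the fitted log2 scale (standard error 0.39; edgeR, adjusted p = 0.851), and it ranged from 0.25 without KO replicate 2 to 0.98 without WT replicate 1. The Fcgr3 to Fcer1g ratio of CPM was between 0.470 and 0.510 in all 6 libraries, although the highest library was 2.97 times the lowest for Fcgr3 and 2.82 times for Fcer1g. For Fcgr1 the ratio to Fcer1g was 0.121, 0.150 and 0.125 in WT libraries 1 to 3, against 0.162, 0.181 and 0.151 in KO libraries 1 to 3, so all KO libraries lay above all WT libraries, WT2 and KO3 being nearly level. For Fcgr4 it ran from 0.345 to 0.405 in WT and from 0.309 to 0.407 in KO libraries.

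Fcgr2b, the inhibitory receptor, reached 74.5, 37.9 and 37.7 CPM in WT and 71.7, 75.8 and 33.7 CPM in KO libraries 1 to 3. KO2 was the highest and KO3 the lowest of all 6 libraries, so the KO range enclosed the WT range. The means were 50.04 ± 21.2 CPM in WT and 60.4 ± 23.2 CPM in KO (SD, n = 3), and the fitted log2 fold change was 0.27 (standard error 0.35; edgeR, adjusted p = 0.897). Fcgr2b also overlaps Gm38204, a gene on the opposite strand, over 155 bases (2.68% of its exons), and Gm38204 had at most 1 count in a library. Leaving out 1 library moved the difference of Fcgr2b between 0.072 (without KO replicate 2) and 0.67 (without WT replicate 1).

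Fcmr, the IgM receptor, was the gene with the most counts of the 7. It reached 276, 162 and 164 CPM in WT and 252, 260 and 136 CPM in KO libraries 1 to 3. The highest level was in WT1 and the lowest in KO3, and the log2 fold change of 0.11 with a standard error of 0.28 was the smallest of the 7 (edgeR, adjusted p = 0.947). Its direction turned when WT2, WT3, KO1 or KO2 was left out, and without WT replicate 1 it was 0.41.

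Fcgrt, the neonatal Fc receptor, had the narrowest spread of the 7 across libraries. It reached 57.1, 62.3 and 61.4 CPM in WT and 66.3, 72.8 and 63.6 CPM in KO libraries 1 to 3, so all 3 KO libraries lay above all 3 WT libraries, KO3 by a small margin. It was the 1 gene of the 7 whose ranges did not overlap, where 5.83% of all tested genes had all KO above all WT libraries and 11.5% did not overlap in either direction. The means were 60.3 ± 2.81 CPM in WT and 67.6 ± 4.73 CPM in KO (SD, n = 3). The fitted log2 difference was 0.16 (standard error 0.089; edgeR, adjusted p = 0.816), and the 95% interval from -0.040 to 0.37 was the narrowest of the 7. Without KO replicate 2 the difference was 0.11, and without WT replicate 2 it was 0.19. Its highest library was 1.28 times its lowest, against 2.03 times for Fcmr to 3.55 times for Fcgr1. B2m, its partner chain, had a log2 fold change of -0.12 (edgeR, adjusted p = 0.875), from 1682 to 2137 CPM in WT and from 1620 to 1934 CPM in KO libraries.

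**Figure D2:**
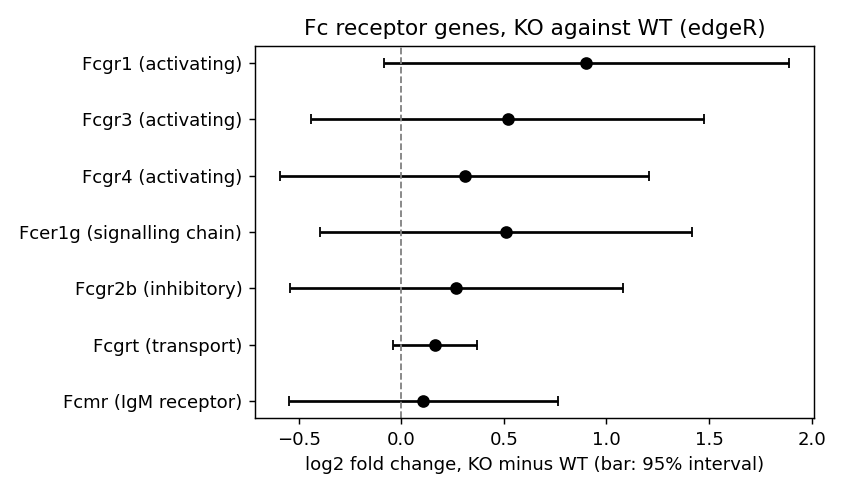
Fitted log2 fold change of each Fc receptor gene in KO against WT (points) with its 95% interval (bars), from edgeR's quasi-likelihood fit to 3 WT and 3 KO libraries. All 7 intervals include 0, and that of Fcgrt, from -0.040 to 0.37, is the narrowest.

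Tested as single values on log2 CPM, the exact two-sided permutation p over the 6 libraries ran from 0.1 for Fcgrt to 1 for Fcmr, and 0.1 is the smallest p that 3 against 3 libraries allow. For Fcgr1 the 95% interval ran from -0.084 to 1.89, for Fcgr3 from -0.44 to 1.48, for Fcer1g from -0.39 to 1.42 and for Fcgr2b from -0.54 to 1.08.

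The 3 highest libraries were WT1, KO1 and KO2 for 6 of the 7 genes, all but Fcgrt, and 13.8% of all tested genes had the same 3 libraries highest. The marker genes of B cells and of myeloid cells followed a similar order. All 7 B cell markers and all 8 neutrophil markers had these 3 libraries highest, as did 8 of 10 macrophage and 5 of 6 monocyte markers. So did 3 of 5 NK cell, 2 of 4 plasmacytoid dendritic cell and 2 of 4 mast cell or basophil markers. None of the 5 T cell markers, the 6 markers of CD8a+ dendritic cells and the 6 erythroid markers did. NK cells, which are known to carry Fcgr3, had summed markers from 174 to 294 CPM in WT and from 194 to 284 CPM in KO libraries, and 1 of the 5 (Klra8, log2 fold change 1.14) was higher in KO at an unadjusted p-value under 0.05, where 4.14% of all genes were. Summed B cell markers ran from 1486 to 2591 CPM in WT and from 1290 to 2982 CPM in KO libraries. Summed neutrophil markers ran from 231 to 881 CPM in WT and from 351 to 1051 CPM in KO libraries, summed monocyte markers from 912 to 1518 and from 906 to 1346 CPM. None of the genes in these 4 lists was at 0 in all libraries, though the neutrophil marker Ly6g had 1 count in WT3, below the floor. The part of other cell types in the Fc receptor levels was not tested, and in bulk RNA a change in the number of cells cannot be told apart from a change in RNA per cell.

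**Figure D3:**
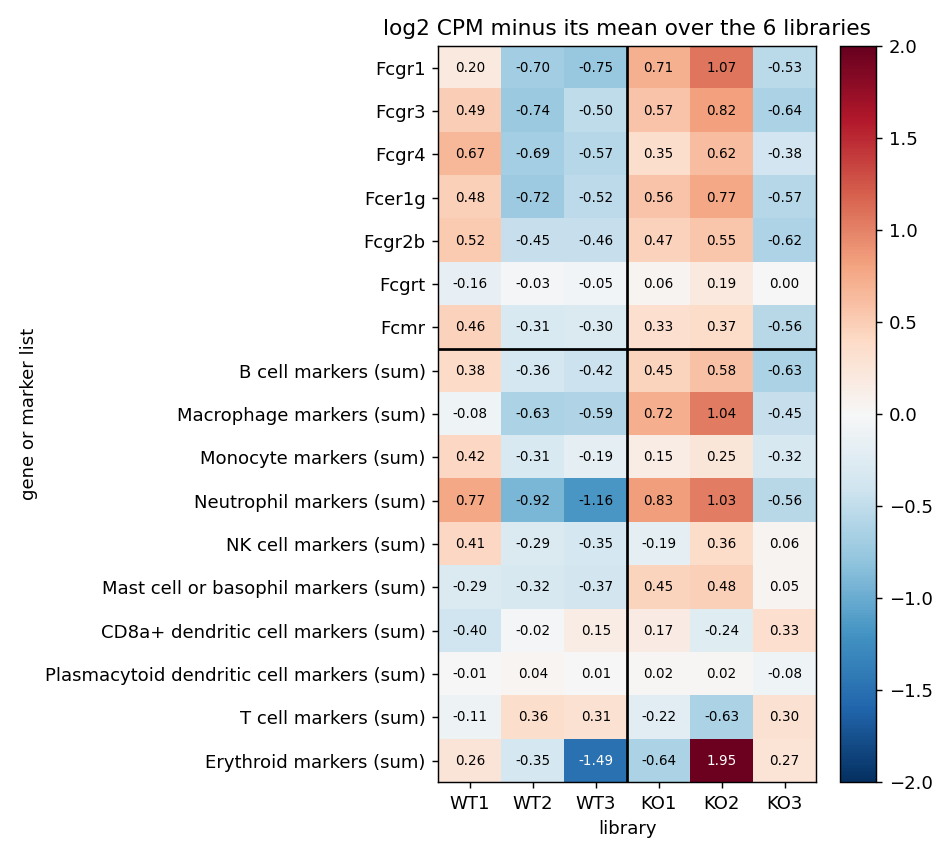
Difference of log2 CPM from its mean over the 6 libraries, for the 7 Fc receptor genes (upper rows) and the summed CPM of 10 marker lists (lower rows), with WT libraries left and KO libraries right of the line. WT1, KO1 and KO2 are above the mean for all Fc receptor genes but Fcgrt and for B cell, neutrophil and monocyte markers, while T cell markers are below their mean in those libraries.

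All 10 macrophage markers had positive log2 fold changes, with a median of 1.13. Their sum was 817, 556 and 571 CPM in WT and 1421, 1772 and 630 CPM in KO libraries 1 to 3. Of the 10 markers, 8 had an unadjusted p-value under 0.05 and were higher in KO, where 4.14% of all genes were. None passed adjustment over all genes (edgeR, smallest adjusted p = 0.556, for Mertk), where 0.0307% of all genes did. Set against this sum, Fcgr1 was at 0.826 to 1.12 CPM per 100 CPM of macrophage markers in WT and at 0.872 to 0.943 in KO libraries, so the ranges overlapped. Fcgr3 was at 2.85 to 4.58 in WT and at 2.65 to 2.77 in KO libraries. Fcer1g was at 5.88 to 9.24 in WT and at 5.21 to 5.76 in KO libraries. For both genes all KO libraries lay below all WT libraries, by small margins. Fcgr3 and Fcer1g had r = 0.976 and 0.972 with summed B cell markers, against 0.910 and 0.911 with summed macrophage markers. Set against the summed B cell markers, Fcgr2b was at 2.43 to 2.88 CPM per 100 CPM in WT and at 2.54 to 2.63 in KO libraries. Fcmr was at 10.4 to 11.0 in WT and at 8.72 to 10.6 in KO libraries. Fcgr4 was at 2.15 to 3.74 CPM per 100 CPM of macrophage markers in WT and at 1.67 to 2.34 in KO libraries. Of the 6 markers of CD8a+ dendritic cells, 3 had an unadjusted p-value under 0.05 and were higher in KO, where 4.14% of all genes were. None passed adjustment (edgeR, smallest adjusted p = 0.274, for Cadm1), and Itgae had a negative log2 fold change (-0.19). The sums of this list ran from 160 to 234 CPM in WT and from 179 to 265 CPM in KO libraries. The erythroid marker sum ran from 235 to 794 CPM in WT and from 426 to 2570 CPM in KO libraries, highest in KO2, which also had the highest level of 5 of the 7 Fc receptor genes. The summed mast cell or basophil markers ran from 22.2 to 23.4 CPM in WT and from 29.8 to 40.1 CPM in KO libraries, without overlap. Most of this sum was Kit, which other progenitor cells are known to carry too, from 16.7 to 20.99 CPM in WT and from 24.2 to 32.1 CPM in KO libraries, and the ranges of Cpa3, Mcpt8 and Gata2 overlapped. In the list, 2 of the 3 genes tested were higher in KO at an unadjusted p-value under 0.05, where 4.14% of all genes were. Over the 6 libraries Fcgrt had r = 0.847 with this sum, its highest among the marker lists. It had 0.728 with macrophage and -0.628 with T cell markers. The value is not particular to Fcgrt, as Fcgr1 had r = 0.823 with the same sum and 0.983 with macrophage markers. The part of mast cells or basophils in the Fcgrt levels was not tested. The ratios to marker sums were chosen after the levels were seen and carry no test.

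The balance of activating and inhibitory IgG receptors was read from levels per length, as CPM per kb of merged exons. The sum of Fcgr1, Fcgr3 and Fcgr4 was 3.84, 3.14 and 3.53 times the level of Fcgr2b in WT and 3.82, 4.36 and 4.08 times in KO libraries 1 to 3. WT1 and KO1 were nearly equal, and the ranges overlapped at this point. On the log2 scale the ratio was 1.80 ± 0.15 in WT and 2.03 ± 0.095 in KO (SD, n = 3), a difference of 0.22. With the longest transcript in place of merged exons the difference was 0.23, and all KO libraries were above all WT libraries, WT1 at 2.65 and KO1 at 2.66. As a score over genes chosen with earlier results known, the ratio carries no test.

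Taken singly, the 3 activating genes gave different ratios. Fcgr1 was at 0.274, 0.290 and 0.280 of the Fcgr2b level in WT and at 0.405, 0.493 and 0.365 in KO libraries 1 to 3. The WT values lay close together and all KO values were higher. The WT values rest on only 80, 43 and 38 counts of Fcgr1, where counting error is large. Their closeness thus does not show a stable WT level. Separate ranges are not rare with 3 libraries a group: 11.5% of all tested genes had them, in either direction. This ratio carries no test either. Fcgr3 was at 1.68, 1.40 and 1.66 times Fcgr2b in WT and at 1.83, 2.07 and 1.69 times in KO libraries, so KO3 barely exceeded WT1. Fcgr4 was at 1.46 to 1.89 times Fcgr2b in WT and at 1.59 to 2.02 times in KO libraries, with overlapping ranges. The mean log2 difference of KO from WT was 0.57 for Fcgr1, 0.24 for Fcgr3 and 0.13 for Fcgr4. KO2 and KO1, in this order, had the highest Fcgr1 to Fcgr2b ratio and the highest summed macrophage markers of the 6 libraries. The order did not hold further: WT1 had the lowest ratio, 0.274, with 817 CPM of these markers, and KO3 had 0.365 with 630 CPM. The part of macrophages in the ratio was not tested.

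**Figure D4:**
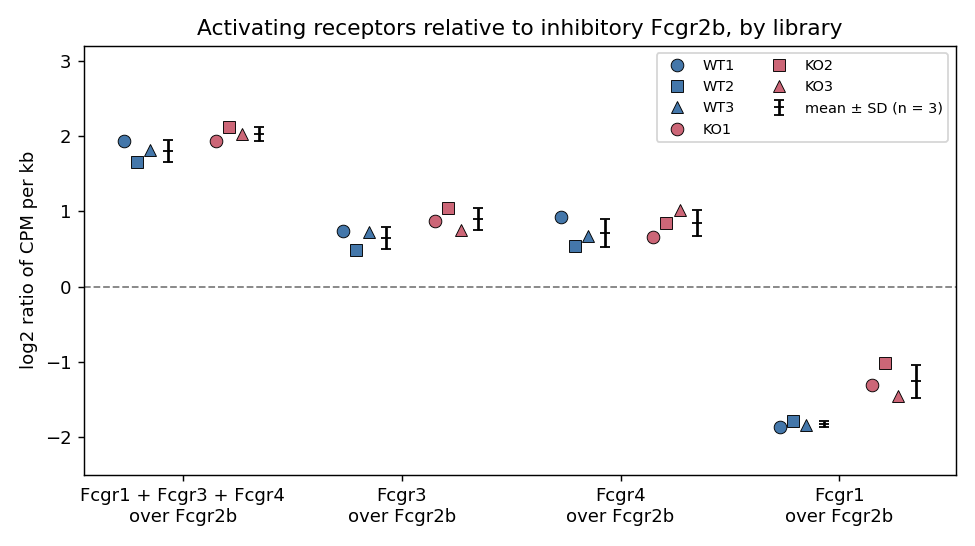
Log2 ratio of activating IgG receptor levels to the level of inhibitory Fcgr2b (CPM per kb of merged exons) in each of 3 WT and 3 KO libraries, with the mean ± SD (n = 3) beside the points. For Fcgr1 over Fcgr2b the WT points lie between -1.87 and -1.79 and the KO points between -1.45 and -1.02, while for Fcgr4 the points overlap.

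Ordered by level per kb over all 6 libraries, Fcmr was highest with 120 ± 35.2 CPM per kb, followed by Fcer1g with 67.6 ± 30.1 and Fcgrt with 30.4 ± 2.52 (SD, n = 6). Fcgr3 and Fcgr4 followed with 16.8 ± 7.83 and 16.5 ± 6.78 CPM per kb, then Fcgr2b with 9.53 ± 3.57 and Fcgr1 with 3.47 ± 1.91. Each gene exceeded the next in 6 of 6 libraries, with the exception of Fcgr3 and Fcgr4, where Fcgr3 was higher in 3 of 6. Fcgr2b has long annotated exons, 5790 bases merged against 3544 in its longest transcript. With the longest transcript its mean level was 15.6 CPM per kb, close to the 16.5 of Fcgr4. Fcgr3 was then at 21.7 CPM per kb, above Fcgr4, so the near tie of Fcgr3 and Fcgr4 depends on the length used.

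The genes whose log2 CPM was most like that of each Fc receptor gene over the 6 libraries were sought among those with a mean log2 CPM of at least 5, about 6000 genes, by Pearson's r as a measure of likeness. For Fcgr3 these were Fcer1g (r = 0.999), the Src family kinase gene Fgr (0.997) and the adaptor gene Lat2 (0.996), and for Fcer1g they included Fgr (0.997) and Lat2 (0.994). For Fcgr2b they were the B cell genes Cd79b (0.998) and Ms4a1 (0.997), and G6pdx (0.996). For Fcmr, Gorasp2 (0.996), Cd79b (0.994) and Fcrla (0.994) came first. The gene most like Fcgr1 was Inpp5d (0.998), and the gene most like Fcgr4 was Rasgrp3 (0.995). Of the genes searched, 2.81% had r of at least 0.95 with Fcgr3. For Fcgrt the share was 0.250%, with Man2a1 (0.997) in first place. Among the 7 genes, Fcgr2b and Fcmr had r = 0.991, while Fcgrt had r between 0.174 (with Fcmr) and 0.612 (with Fcgr1). These are descriptions over points that share library and depth.

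Of 13 other genes for Fc receptors, receptor-like proteins and partners, 8 had enough counts to be tested, none passed adjustment (0.0307% of all genes) and none had an unadjusted p-value under 0.05 (6.25% of all genes), with a median log2 fold change of 0.15. The IgE receptor of B cells, Fcer2a, reached 184, 99.4 and 91.6 CPM in WT and 185, 172 and 76.6 CPM in KO libraries 1 to 3, again with WT1, KO1 and KO2 highest. Fcrl1, an Fc receptor-like gene of B cells, had a log2 fold change of 0.36, and Fcrla, a related gene for an intracellular protein of B cells, 0.14 (edgeR, adjusted p = 0.871 and 0.944). Trim21, the cytosolic antibody receptor, ran from 45.9 to 53.9 CPM in WT and from 44.3 to 52.8 CPM in KO libraries and did not follow that order. The mast cell and basophil IgE receptor chains Fcer1a and Ms4a2 had at most 4 and 12 counts in a library and were not tested, and Fcrl6 had 0 counts in each library.

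The ligands of these receptors are the antibody heavy chains. Of 8 constant region genes, 7 were tested, and 4 had positive and 3 negative log2 fold changes. None passed adjustment, where 0.0307% of all tested genes did. Ighm, the ligand of Fcmr, reached 2869, 1868 and 1645 CPM in WT and 2823, 2845 and 1703 CPM in KO libraries 1 to 3. Ighg3 was the 1 gene of the list with an unadjusted p-value under 0.05, with a log2 fold change of 0.70 (edgeR, adjusted p = 0.786), where 6.25% of all tested genes were under it and 4.14% were so and higher in KO. Ighg2c had -0.59 (edgeR, adjusted p = 0.850). No heavy chain gene had separate ranges in the genotypes, against 11.5% of all tested genes.

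Of 30 genes for proteins that carry Fc receptor signals, all 30 were tested, with a median log2 fold change of 0.15. None of them passed adjustment, where 0.0307% of all tested genes did. The unadjusted p-value was under 0.05 for 1 of them (Gab2, higher in KO), where 4.14% of all tested genes were higher in KO at that threshold. Large positive values were those of the adaptor gene Gab2 (0.77) and the kinase gene Syk (0.49) (edgeR, adjusted p = 0.786 and 0.844). The largest negative values were those of genes known from T cells, Zap70 (-0.33), Lat (-0.30) and Cd247 (-0.17) (edgeR, adjusted p = 0.819, 0.817 and 0.828). For Syk, levels were 421, 249 and 273 CPM in WT and 477, 632 and 214 CPM in KO libraries 1 to 3, with WT1, KO1 and KO2 highest as for Fcer1g. Inpp5d, for the phosphatase that acts below Fcgr2b, ran from 231 to 266 CPM in WT and from 239 to 297 CPM in KO libraries (log2 fold change 0.17, edgeR, adjusted p = 0.819).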

How the data were processed

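The authors deposited 1 table for each library, holding estimated counts for Ensembl genes, partly fractional and not normalized. This unit was inferred from the values. The records name the builds GRCm38 and mm10. Aligner, counter, annotation and use of strand are not given in the sources used here. The kit was SMARTER mRNA-Seq.

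Counts were rounded and analyzed in R 4.3.3 with edgeR 4.0.16 (TMM, filterByExpr at its settings of 10 counts, and 15 in total, quasi-likelihood test, Benjamini-Hochberg adjustment over 13024 genes, threshold 0.05). CPM are TMM-normalized. Standard errors come from the log2 fold change and the F statistic. Groups followed the sample titles. Of the identifiers, 44121 (98.8%) were in GENCODE M21. Alternatives were DESeq2 1.42.0, limma voom 3.58.1, upper-quartile normalization, other filters, the replicate number as a block, and each library left out. The procedure was tested on simulated counts. Replicates differed by more than sampling noise (chi-square per degree of freedom from 6.29 to 23.4). Protein sequences were not used here.

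The genes and lists were chosen with earlier results of these data known. Named were the 7 genes, other Fc receptor and antibody genes, the 3 largest rises and falls of the signaling list and up to 3 genes most like each gene; 1 gene that this rule names is not reported here. The promoter motif and the ratios to markers were chosen after the data were seen.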

Additional observations from a re-analysis of the deposited data

How the results depend on the processing

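No alternative called any of the 7 Fc receptor genes, and 6 of them kept their direction in all 12 alternatives. The log2 fold change of Fcmr turned to -0.027 without WT replicate 2, -0.038 without WT replicate 3, -0.038 without KO replicate 1 and -0.047 without KO replicate 2. Without WT replicate 1 it was 0.41. Of the 7 genes, 4 had an unadjusted p-value under 0.05 without WT replicate 1, where 1229 of all 13293 genes did, and 3 without KO replicate 3, where 1869 of 13302 did. The number of all genes called, 4, was 56 with DESeq2, 12 without a filter on low counts and 9 with the replicate block, and from 2 to 94 with 1 library left out, the most without KO replicate 3. The block called 0 of the 7. Across genes, the deviations of same-numbered libraries from their group means had r = -0.010, -0.20 and 0.11. Over all pairs of a WT and a KO library, r ran from -0.26 to 0.29. With 3 libraries a group, these values cannot decide whether the numbers pair libraries. The activating to inhibitory log2 ratio in KO minus WT, 0.22, was 0.57 for Fcgr1 alone, and from 0.15 to 0.29 with 1 library left out. The 3 libraries a group and counts of 38 to 139 for Fcgr1 limit what could be detected.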
